A study of Homo sapiens with 6 samples.

Results

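Collagen and laminin chains, together with FN1, SPARC and 4 lysyl oxidase-like enzymes, were followed in MDA-MB-231 cells given TCI04. Members were the genes whose symbol is that of a collagen alpha chain or a laminin alpha, beta or gamma chain, or is FN1, SPARC, LOXL1, LOXL2, LOXL3 or LOXL4, among probe sets with 1 gene symbol in the platform annotation. This gave 59 of 19775 named genes, measured by 152 of 54675 probe sets, and the probe set of highest mean signal stood for each gene. They comprised 11 fibrillar collagens, 8 basement membrane collagens, 10 laminins, 24 other collagens and 6 non-collagen members.

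MDA-MB-231 is an established human triple-negative breast cancer cell line of mesenchymal type, grown here in medium with serum. One group of 3 arrays came from cells treated with 50 µM TCI04, which the labels give as a code name only, and the other group of 3 arrays from cells that received phosphate-buffered saline (PBS), both harvested at 48 h. All cells were of this 1 line, with no matrix-producing stromal cells named in the labels. Nothing in the labels tells separate cultures from repeat arrays of 1 culture, so the spread behind each p-value is that of these arrays and may be technical.

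Collagens are secreted as helices of 3 chains, each built from repeats that begin with glycine. Fibrillar collagens such as type I form the load-bearing fibres of stroma, where they are made mostly by fibroblasts. Type IV collagen and the laminins, which pair 1 alpha, 1 beta and 1 gamma chain, form the sheet-like basement membrane on which epithelial cells rest. Fibronectin (FN1) and SPARC bind collagens and other matrix proteins, and the LOXL enzymes crosslink collagen and elastin. In breast carcinoma, loss of the basement membrane and a stiff fibrillar matrix accompany invasion.

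The arrays had a common trimmed mean signal of 500.1 and median signals of 64.0 to 74.3 with PBS and 58.9 to 59.8 with TCI04. The cell line markers VIM, CD44, ZEB1, AXL and CAV1 were above the filter on dim probe sets in these arrays, as were 7 of 8 markers of mesenchymal breast cancer lines, with TWIST1 below it; 2 of the 8, FN1 and SPARC, are members here. The epithelial cadherin CDH1 and the luminal markers PGR and TFF1 were below the filter, while the other 8 of 11 luminal markers, among them KRT18, were above it. Of the leukocyte markers, 4 of 7 measured passed the filter, with PTPRC, CD14 and LYZ below it, and of the endothelial markers 2 of 7. The ratio of the 3′ to the 5′ control signal of ACTB, a measure of RNA integrity, was 3.33 in TCI04 replicate 3 and 1.64 to 1.72 in the other 5 arrays.

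A signal is the MAS5 summary of the probes of 1 probe set on a linear scale. Probes differ in affinity, so signals were compared between arrays and not between genes. A probe set entered the test if its mean log2 level lay at or above the 40th percentile of all probe sets, which corresponds to a signal of about 33.9. By this filter 39 of 59 members (66.1%) were tested, against 69.1% of all named genes. All 6 non-collagen members, 9 of 10 laminins and 6 of 8 basement membrane collagens were tested, but only 6 of 11 fibrillar and 12 of 24 other collagens. Just above the filter lay LAMA4, COL2A1 and COL23A1, and just below it COL8A2, COL6A2 and COL1A2.

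**Figure D1:**
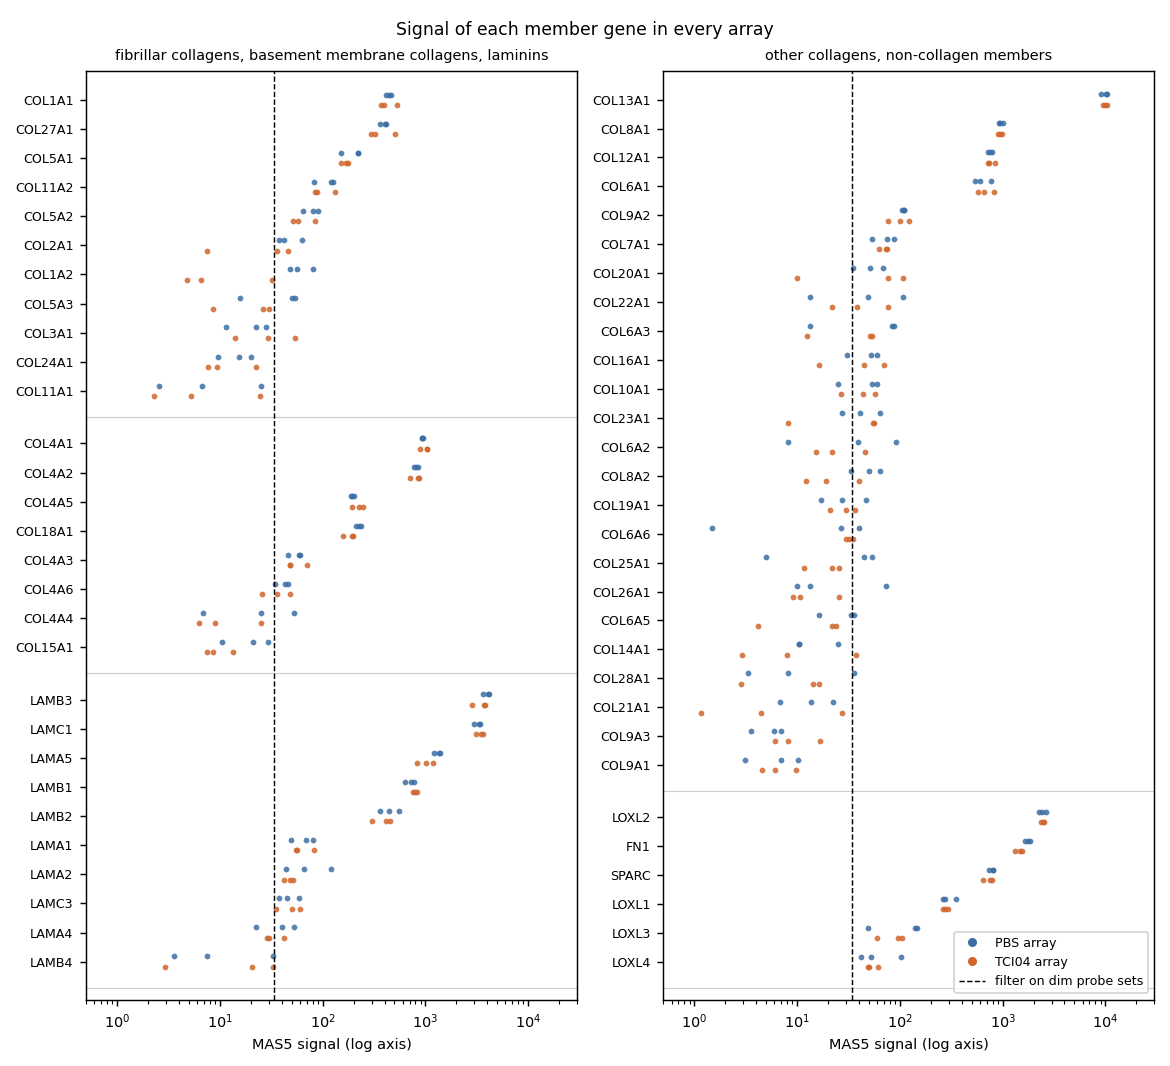
MAS5 signal (log axis) of the 59 member genes in every array, PBS in blue and TCI04 in orange, with 1 row per gene ordered by mean signal within its class. The dashed line marks a signal of 33.9, near which the filter on dim probe sets lies; below it the 6 arrays of a gene scatter widely, and above it most genes hold their PBS and TCI04 points close together.

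No member differed between TCI04 and PBS after correction. The test was limma's moderated test on log2(signal + 10.96), with Benjamini-Hochberg adjustment over all 32746 tested probe sets, and 0 of 39 tested members passed the adjusted threshold of 0.05 in either direction. Over all tested genes 1 of 13674 passed (0.00731%), and over all probe sets 1 of 32746 (0.00305%); this was the AP-1 subunit FOS, which fell. At an unadjusted p under 0.05 there were 2 lower members, FN1 and LAMA5, and 0 higher ones, or 5.13% of the members, against 7.05% of all genes (4.15% lower and 2.9% higher). With arrays centred on their medians there were instead 0 lower members and 2 higher ones, LAMB1 and LAMC1, beside 1.01% of all genes lower and 18.4% higher. The smallest adjusted p of a member was 0.697, and it was 0.28 at the lowest over 18 alternative settings. Over all 70 tested probe sets of members, 51 had a lower mean and 19 a higher one, where 56.2% of all tested probe sets had a lower mean. In limma 0 passed the adjusted threshold and 5 an unadjusted p under 0.05, where 7.08% of all tested probe sets did. Of the 18 members with more than 1 tested probe set, 8 had a single direction and 10 had both. In a bulk RNA sample, a smaller share of cells making a transcript and less of it in each cell cannot be told apart.

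The intervals show how large a change these arrays could have missed. A 2-fold change in either direction lay outside the 95% interval for 31 of 39 members (79.5%, against 86.1% of all genes), and a 1.5-fold change for 16 (41% against 66.5%). The median interval reached 0.416 to each side on the log2 scale, against 0.276 over all genes. It reached 0.272 for the non-collagen members, 0.34 for basement membrane collagens, 0.399 for laminins, 0.483 for fibrillar collagens and 0.71 for other collagens. With the deposited scaling, the interval of the brightest probe set was narrow for the type IV collagens COL4A1 and COL4A2, LAMB1, LAMB3, LAMC1, LOXL2 and COL13A1. It was wide for dim chains such as COL6A3, COL20A1 and COL22A1. The intervals do not cover the choice of scaling. With arrays centred on their medians COL13A1 gave 0.167, above its interval of -0.136 to 0.15, and LAMB1 gave 0.326.

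**Figure D2:**
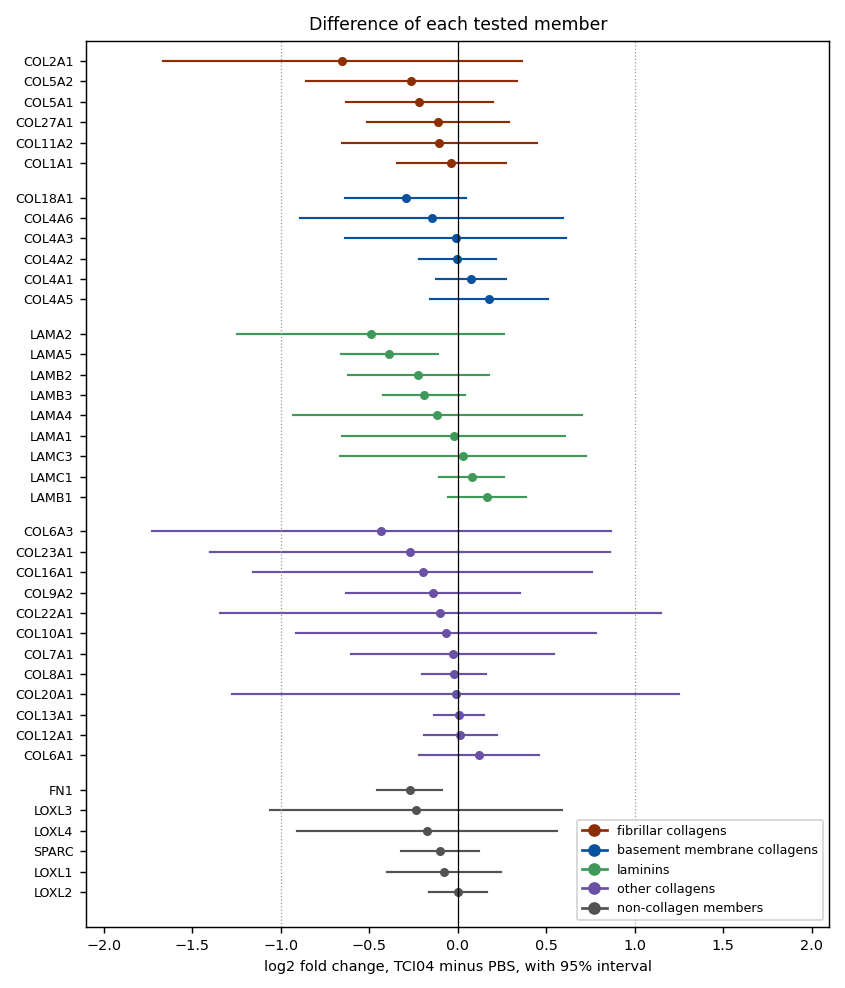
Log2 fold change (TCI04 minus PBS) of the 39 tested members with its 95% interval, coloured by class; dotted lines mark a 2-fold change in either direction. The intervals of 37 members include 0, and those of FN1 and LAMA5 lie below it before correction for the number of probe sets tested.

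FN1 had the smallest unadjusted p of the tested members. Fibronectin is a dimeric glycoprotein that cells assemble into fibrils through integrins, and it is a common marker of the mesenchymal state. Its signal was 1781, 1634 and 1826 in PBS replicates 1, 2 and 3 and 1478, 1327 and 1535 in the corresponding TCI04 arrays. All 3 TCI04 arrays lay below all 3 PBS arrays. Mean signals were 1747 ± 100.3 with PBS and 1447 ± 107 with TCI04 (SD over 3 arrays, n = 3), a log2 fold change of -0.27 (standard error 0.08, 95% interval -0.45 to -0.09). This failed the correction (limma, unadjusted p = 0.00757, adjusted p = 0.697, with 0.457 to 0.809 over all alternatives). With arrays centred on their medians, the log2 fold change was -0.11 and the unadjusted p 0.296 in limma.

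FN1 is covered by 7 probe sets, of which 6 were tested. The second and the fourth by mean signal had log2 fold changes of -0.17 and -0.35, and the pair of dim ones -0.43 and -0.44, while the third, at 1437 ± 122 with PBS and 1453 ± 136 with TCI04, had 0.02. Of the 6, 3 had groups that did not overlap and 2 an unadjusted p under 0.05. The 3 with an x in their name (prone to cross-hybridization) gave -0.27, -0.17 and -0.35. With probe sets of the x and s kinds left out, FN1 was represented by a dim probe set, with a log2 fold change of -0.44 and an unadjusted p of 0.219.

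**Figure D3:**
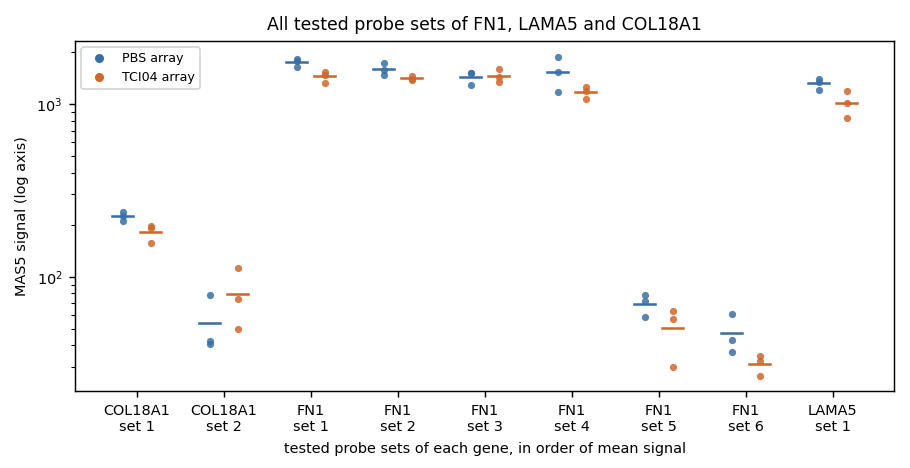
MAS5 signal (log axis) in each array for every tested probe set of COL18A1, FN1 and LAMA5, ordered by mean signal within a gene; short bars are group means of 3 arrays. FN1 is lower with TCI04 in 5 of its 6 probe sets, and the 2 probe sets of COL18A1 differ in direction.

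LAMA5, the alpha chain of the most widespread laminins of adult basement membranes, had the other unadjusted p under 0.05. Its single tested probe set read 1346, 1396 and 1206 with PBS and 1191, 830 and 1017 with TCI04. The groups did not overlap, by a gap between 1206 and 1191 in the nearest arrays. Mean signals were 1316 ± 98.1 with PBS and 1013 ± 181 with TCI04 (SD, n = 3), for a log2 fold change of -0.39 with an interval from -0.66 to -0.11 (limma, unadjusted p = 0.0101, adjusted p = 0.697, with 0.406 to 0.809 over the alternatives). TCI04 replicate 2 was the lowest array, and without it the log2 fold change was -0.25. With arrays centred on their medians it was -0.23 with an unadjusted p of 0.114 in limma, and with the variance of this probe set alone the unadjusted p was 0.0752.

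The upstream sequences of these 2 genes are shown because they are the tested members nearest to a call. A further reason is that FOS, the gene that was called, encodes a subunit of AP-1, for which the letters TGANTCA were searched as a site. RefSeq promoter sequences (GRCh38.p14) were at hand for 44 of 59 members, in 59 windows of 250 bases that end at the base before the annotated start. Capitals mark the cyclic AMP response element (CRE, TGACGTCA) and the CCAAT box in FN1, and the GC box (GGGCGG) in LAMA5, on either strand.
FN1 upstream, chr2:215436069-215436318, minus strand: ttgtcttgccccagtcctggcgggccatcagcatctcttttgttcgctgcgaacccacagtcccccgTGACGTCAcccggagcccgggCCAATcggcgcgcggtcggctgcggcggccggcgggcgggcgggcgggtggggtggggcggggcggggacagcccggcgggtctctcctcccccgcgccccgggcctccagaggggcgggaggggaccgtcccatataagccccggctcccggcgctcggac
LAMA5 upstream, chr20:62367313-62367562, minus strand: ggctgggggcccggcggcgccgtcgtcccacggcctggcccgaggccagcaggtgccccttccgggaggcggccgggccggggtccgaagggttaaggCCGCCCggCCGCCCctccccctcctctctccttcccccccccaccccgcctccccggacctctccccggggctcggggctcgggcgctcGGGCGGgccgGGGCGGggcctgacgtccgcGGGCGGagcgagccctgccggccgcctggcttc

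Neither window holds TGANTCA. The FN1 window holds 1 CRE, 1 CCAAT box and 6 GC boxes (the last in lower case), and the LAMA5 window 5 GC boxes and no CRE or CCAAT box. FN1 was the only member with a CRE, in 1 of 59 member windows (1.69%), against 1.65% of all 35116 promoter windows of the same length. TGANTCA stood in 2 member windows (3.39% against 6.57%), those of LAMB3 and COL10A1, CCAAT in 23.7% (against 32%) and the GC box in 57.6% (against 42.6%). Both strands were searched, overlapping matches were counted, and TGANTCA cannot match within TGACGTCA. A match is only a run of letters, and its absence only the lack of that run. Whether AP-1 or any other factor binds these windows, at these or other letters, was not tested.

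Of the other laminins, LAMC1 and LAMB1, the gamma and beta chains found in most laminins, had higher means. LAMC1 read 3319, 3417 and 2940 with PBS and 3084, 3643 and 3497 with TCI04, and the groups overlapped (log2 fold change 0.08, interval -0.11 to 0.26). LAMB1 read 771, 727 and 633 with PBS and 763, 799 and 825 with TCI04, for a log2 fold change of 0.17 with an interval from -0.05 to 0.39, and its second probe set gave 0.16 (limma, adjusted p = 0.716 for the first). Only the PBS replicate 1 array of LAMB1 reached into the TCI04 range. Without PBS replicate 3, the lowest of its arrays, the value was 0.09.

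LAMB3, a beta chain of the laminin that anchors epidermis and is linked to invasive carcinoma edges, read 3611, 4153 and 4031 with PBS and 3738, 3777 and 2865 with TCI04. Its log2 fold change of -0.19 (interval -0.43 to 0.04) became -0.06 without TCI04 replicate 3, the array with the high ACTB 3′ to 5′ ratio, whose part in this result was not tested. LAMB2, a beta chain of muscle, nerve and kidney, gave -0.22 (interval -0.62 to 0.18), with PBS arrays from 363 to 548 and TCI04 arrays from 299 to 448. The alpha chains LAMA1, LAMA2 and LAMA4 were dim, with log2 fold changes of -0.02, -0.49 and -0.12. For LAMA2, the alpha chain of muscle basement membrane, PBS replicate 1 at 119 stood above the other 5 arrays at 42.1 to 65.1, and its other tested probe sets gave -0.19 and -0.14. LAMC3 gave 0.03, and LAMB4 was not tested.

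The 2 main chains of type IV collagen, COL4A1 and COL4A2, differed little between the groups. Both are needed for the network that gives basement membranes their strength, and their genes lie head to head. COL4A1 read 923, 931 and 943 with PBS and 882, 1044 and 1030 with TCI04, for a log2 fold change of 0.07 (interval -0.12 to 0.27). COL4A2 read 774, 842 and 801 with PBS and 838, 869 and 714 with TCI04, for a log2 fold change of -0.003 (interval -0.22 to 0.22). The TCI04 arrays spread more widely than the PBS arrays for both chains. A dimmer probe set of COL4A2 gave -0.87, at 78.6 ± 25.6 with PBS and 40.1 ± 22.4 with TCI04 (limma, unadjusted p = 0.0482, adjusted p = 0.697), with overlapping groups. Averaged over both probe sets, COL4A2 gave -0.43 (limma, unadjusted p = 0.042, adjusted p = 0.67).

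The segment between the starts of these 2 genes is shown because both chains are transcribed outward from it. It is 126 bases long in RefSeq (GRCh38.p14), and capitals mark the CCAAT box and the GC box on the strand of COL4A2.
COL4A1-COL4A2 segment, chr13:110307158-110307283, plus strand: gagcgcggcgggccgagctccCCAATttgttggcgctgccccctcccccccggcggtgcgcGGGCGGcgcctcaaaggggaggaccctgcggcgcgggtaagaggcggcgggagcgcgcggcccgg
It held 1 CCAAT box and 1 GC box, and no CRE or TGANTCA.

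The remaining type IV chains replace COL4A1 and COL4A2 in kidney, eye and other specialised membranes. COL4A5 read 188, 194 and 200 with PBS and 193, 247 and 225 with TCI04, for a log2 fold change of 0.18 (interval -0.16 to 0.51). COL4A3 and COL4A6 were dim, at -0.01 and -0.15, and COL4A4 was not tested. COL18A1, whose cleaved end is the angiogenesis inhibitor endostatin, read 226, 237 and 211 with PBS and 198, 192 and 156 with TCI04. Its groups did not overlap, with a log2 fold change of -0.29 and an interval from -0.64 to 0.05 (limma, adjusted p = 0.703). Without TCI04 replicate 3 it was -0.20, and the second probe set of COL18A1 gave 0.46, so the mean of both gave 0.08. COL15A1, the close relative of COL18A1, was not tested.

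Groups that did not overlap were thus found for 3 of 39 tested members, FN1, LAMA5 and COL18A1, all lower (7.69%, against 6.91% of all tested genes). No member was higher in every TCI04 array, against 6.66% of all genes. For either direction the share over all genes was 13.6%.

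Among the fibrillar collagens, the chain mean was lower in all 6 tested genes with the deposited scaling, and none passed. It was lower in 5 of 6 after quantile normalization and in 3 of 6 with median centring. Without TCI04 replicate 1 it was lower in 4 of 6, and likewise without TCI04 replicate 2. COL1A1, the main chain of type I collagen, read 442, 414 and 459 with PBS and 397, 372 and 525 with TCI04, for a log2 fold change of -0.04 (interval -0.35 to 0.27). Only 2 of its 5 probe sets were tested, and the second gave 0.14. The first is of the x kind (prone to cross-hybridization) and the second of the s kind. The untested ones had mean signals of 19.7, 20.4 and 21.1, below the filter signal. COL27A1, a collagen of cartilage, read 415, 408 and 360 with PBS and 294, 324 and 502 with TCI04, which gave -0.11, with TCI04 replicate 3 above all other arrays and TCI04 replicates 1 and 2 below them. Its other tested probe sets gave -0.16 and -0.20.

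COL5A1 and COL5A2, the chains of type V collagen that set the width of type I fibrils, had log2 fold changes of -0.22 and -0.26. COL5A1 read 150, 222 and 220 with PBS and 169, 150 and 178 with TCI04, with overlapping groups, and its other probe sets gave 0.01 and -0.05. Without PBS replicate 1 the value was -0.39 (limma, unadjusted p = 0.0438, adjusted p = 0.723). For COL5A2 the chosen probe set ranged from 64.0 to 89.7 with PBS and from 51.1 to 83.8 with TCI04. The dimmer one read 58.2, 62.5 and 60.02 with PBS and 14.2, 48.5 and 13.8 with TCI04. Its groups did not overlap (log2 fold change -1.09, limma, unadjusted p = 0.0206, adjusted p = 0.697), but 2 of the TCI04 arrays lay below the filter signal. Averaged over both probe sets, COL5A2 gave -0.68 (limma, unadjusted p = 0.0359, adjusted p = 0.67). COL11A2, a cartilage chain, gave -0.11, and COL2A1, the main collagen of cartilage, -0.65 with an interval from -1.67 to 0.36. COL2A1 read 37.7, 62.8 and 41.9 with PBS and 45.5, 7.44 and 35.9 with TCI04.

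COL1A2, the partner of COL1A1 in type I collagen, was below the filter. Its brightest probe set read 56.3, 80.2 and 48.2 with PBS and 6.52, 31.9 and 4.74 with TCI04, so the groups did not overlap. Without the filter its log2 fold change was -1.65 (interval -2.68 to -0.62, unadjusted p = 0.0055 and adjusted p = 0.724 in limma). All 3 TCI04 arrays lay below the filter signal. Its other probe sets, at 18.2 ± 23.0 and 10.1 ± 9.24 with PBS and 18.4 ± 12.2 and 9.01 ± 5.71 with TCI04, overlapped.

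Most fibroblast markers were below the filter. Of 9 such markers, 3 of which are collagens described here, 3 were above the filter (THY1, DCN and COL1A1), and PDGFRA, PDGFRB, FAP, LUM, COL1A2 and COL3A1 were below it. Their summed signal ranged from 714 to 777 with PBS and from 547 to 797 with TCI04. COL1A1, read by a probe set of the x kind, averaged 439 with PBS and 431 with TCI04 and was the largest part of this sum. THY1, a surface glycoprotein of fibroblasts, read 92.0, 53.0 and 78.7 with PBS and 8.75, 12.5 and 30.4 with TCI04. Its groups did not overlap, and all 3 TCI04 arrays lay below the filter signal. The log2 fold change of THY1 was -1.65 (limma, unadjusted p = 0.00162, adjusted p = 0.697). LUM, FAP and COL3A1 had higher means with TCI04 (23.2, 24.5 and 32.2, against 10.4, 18.3 and 20.6 with PBS), all below the filter signal, and DCN gave -0.11. The labels name no cell type other than MDA-MB-231, and what lies behind the COL1A2 values was not tested.

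The other collagens include chains that link fibrils, form networks or cross the cell membrane. COL13A1, a membrane-spanning collagen of cell adhesion sites, read 9157, 10435 and 10057 with PBS and 9825, 9525 and 10417 with TCI04, for a log2 fold change of 0.01 (interval -0.14 to 0.15). The short-chain network collagen COL8A1 gave -0.02 (interval -0.20 to 0.16), at 958 ± 40.4 with PBS and 945 ± 35.2 with TCI04 (SD, n = 3). COL12A1, which decorates type I fibrils, gave 0.01 (interval -0.19 to 0.22), though its other tested probe sets gave 0.03, 0.23 and -0.43. For these 3 genes the groups overlapped and the interval of the chosen probe set excluded a 1.5-fold change.

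COL6A1, a chain of the beaded filaments around cells, read 601, 765 and 533 with PBS and 581, 815 and 666 with TCI04, for a log2 fold change of 0.12 (interval -0.22 to 0.46). It is covered by 8 probe sets, of which the 4 tested ranged from -0.99 to 0.22. The partner chain COL6A3 gave -0.43, with an interval from -1.73 to 0.86. Replicate 1 of each group was low, at 13.3 with PBS and 12.5 with TCI04, and the other 4 arrays lay between 50.6 and 88.2. COL6A2 was not tested. COL7A1, the chain of the fibrils that anchor epidermis, gave -0.03, and COL9A2, of cartilage, -0.14. The log2 fold changes of the remaining tested chains of this class (COL10A1, COL16A1, COL20A1, COL22A1 and COL23A1) lay between -0.27 and -0.01.

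LOXL2, the lysyl oxidase-like enzyme most often linked to breast cancer invasion, read 2284, 2430 and 2667 with PBS and 2522, 2484 and 2364 with TCI04. Its log2 fold change was 0 to 3 decimals, with an interval from -0.16 to 0.16. SPARC, a matricellular protein that binds collagen, read 797, 734 and 799 with PBS and 752, 781 and 643 with TCI04, for a log2 fold change of -0.10 (interval -0.32 to 0.12), and its second probe set gave 0.15. LOXL1, LOXL3 and LOXL4 gave -0.08, -0.24 and -0.17, with overlapping groups.

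Set side by side, the classes had median log2 fold changes of -0.16 for the 6 tested fibrillar collagens, -0.01 for 6 basement membrane collagens, -0.12 for 9 laminins, -0.05 for 12 other collagens and -0.14 for 6 non-collagen members. The median of all 39 was -0.10 and that of all tested genes -0.002. Lower means were found for 30 of 39 members (76.9%), against 50.6% of all tested genes. By class these were 6 of 6, 4 of 6, 6 of 9, 9 of 12 and 5 of 6. Single members ranged from -0.65 to 0.18, and no test between classes was made.

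This balance changed with the scaling of the arrays. Centring on the medians adds one amount to every gene: the median of all genes moved by 0.159, to 0.157, and 14 of 39 members then had a lower mean, against 22.1% of all genes. After quantile normalization 21 of 39 did, against 45.1%, with a median of -0.01 for all members, -0.09 for fibrillar collagens, 0.06 for basement membrane collagens, 0.05 for laminins, 0.01 for other collagens and -0.06 for non-collagen members. With median centring these were 0.06 for all members and -0.005, 0.15, 0.04, 0.11 and 0.02 for the classes. Relative to the median of all genes, the members stood at -0.10 with the deposited scaling, -0.03 after quantile normalization and -0.10 with median centring. The fibrillar collagens stood at -0.16, -0.11 and -0.16, and the laminins turned from -0.11 to 0.03 after quantile normalization.

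**Figure D4:**
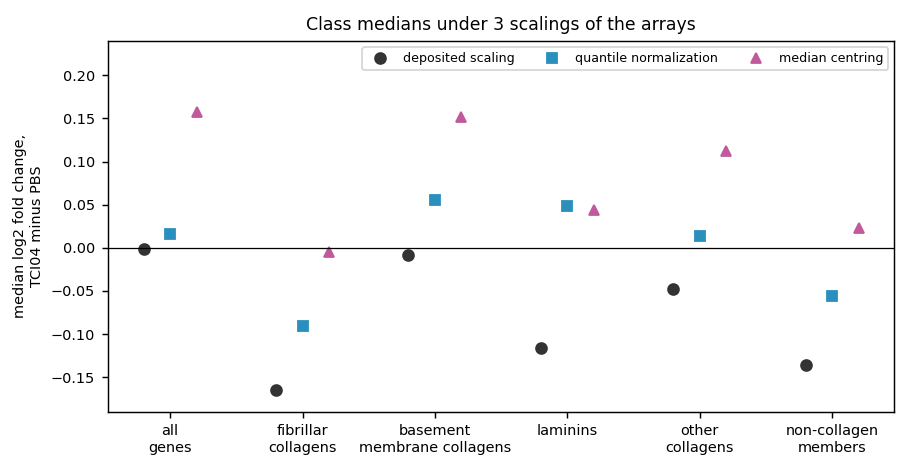
Median log2 fold change (TCI04 minus PBS) of all genes and of each class of members with the deposited scaling, after quantile normalization and with arrays centred on their medians. Fibrillar collagens have the lowest median under each of the 3 scalings, and basement membrane collagens, laminins and other collagens change sign after quantile normalization. Median centring moves all points by the same amount, so it keeps the order of the classes of the deposited scaling. With a 60th percentile filter (not shown) the laminins had the lowest median (-0.193, against -0.111 for fibrillar collagens).

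Lower means were more frequent among dim genes with the deposited scaling. Of the 19 tested members below a signal of about 113 (the 60th percentile), 18 had a lower mean (median -0.14), beside 65.5% of 3360 genes in that band, whose median was also -0.14. Of the 20 brighter members, 12 had a lower mean (median -0.03), beside 45.8% of 10314 genes and a median of 0.01. After quantile normalization 9 of the 19 dimmer members and 12 of the 20 brighter ones were lower, and the medians were 0.006 and -0.02. Fibrillar collagens had 3 of 6 tested genes in the dimmer band.

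By array, the median deviation of the 39 members from their PBS mean was 0.03, 0.05 and 0.02 in the PBS arrays (replicates 1, 2 and 3) and -0.07, -0.12 and -0.05 in the TCI04 arrays in the same order. For fibrillar collagens it was -0.01 in TCI04 replicate 3, against -0.16 in replicate 1 and -0.34 in replicate 2 of that group, and their median log2 fold change was -0.30 without replicate 3 and -0.09 without replicate 2. For laminins TCI04 replicate 3 was instead the lowest, at -0.22, and their median ranged from -0.25 without TCI04 replicate 2 to 0.10 without PBS replicate 2. With the deposited scaling both classes were thus below their PBS mean in every TCI04 array, but the lowest array was not the same. Some PBS arrays were below it too. In replicate order they stood at 0.044, -0.015 and 0.058 for fibrillar collagens, and at -0.006, 0.086 and -0.029 for laminins. For fibrillar collagens PBS replicate 2 thus lay below TCI04 replicate 3 (-0.009).

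The enzymes and receptors that make and sense these chains were examined as 5 lists, in which 0 of 60 tested genes passed the adjusted threshold. Unadjusted p-values under 0.05 were found for 9 of 60, 7 lower and 2 higher, or 15%, against 7.05% of all tested genes. The median log2 fold change over all 60 was -0.05. In the list of collagen modification, folding and export, 13 of 19 tested genes had a lower mean (median -0.05), and 4 had an unadjusted p under 0.05, all lower (21.1%). Over all genes 50.6% had a lower mean and 4.15% were lower at that p. COLGALT1, which adds galactose to hydroxylysines of collagen, read 1536, 1406 and 1455 with PBS and 1235, 1116 and 1080 with TCI04. Its groups did not overlap, with a log2 fold change of -0.36 and an interval from -0.54 to -0.17 (limma, unadjusted p = 0.00128, adjusted p = 0.697).

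FKBP10, a prolyl isomerase that folds procollagen and assists its crosslinking, read 464, 605 and 455 with PBS and 338, 428 and 300 with TCI04, for a log2 fold change of -0.51 (interval -0.86 to -0.16). PPIB, another prolyl isomerase of the endoplasmic reticulum, gave -0.20 and the lysyl hydroxylase PLOD3 -0.26, and in each of these 3 genes all TCI04 arrays lay below all PBS arrays, though the correction was failed (limma, adjusted p = 0.697 each). PLOD3 was named after its value was seen. P4HB, the beta subunit of prolyl 4-hydroxylase, gave -0.12, and SEC23A, a coat protein for export of large procollagens, 0.12. In COLGALT1, FKBP10, PPIB, P4HB and PLOD3 the lowest array was TCI04 replicate 3, and the part of its ACTB ratio was not tested.

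In the list of procollagen cleavage and crosslinking, 4 of 7 tested genes had a lower mean (median -0.04), with the peroxidasin PXDN at 0.05, LOX at -0.05 and the transglutaminase TGM2 at -0.25. Of the basement membrane linkers and proteoglycans, 5 of 8 were lower (median -0.08), with NTN4 at 0.09, EFEMP1 at 0.15 and TINAGL1 at -0.20. Among the collagen and laminin receptors 9 of 15 were lower (median -0.06). At an unadjusted p under 0.05 in limma, 2 receptors were lower and 2 higher (26.7%), the largest share of the 5 lists. Groups did not overlap for 3 higher and 2 lower receptors. At that p the list of procollagen cleavage and crosslinking had 1 lower gene (14.3%). The linkers and the other matrix glycoproteins had 0. The common beta subunit ITGB1 gave 0.01 (interval -0.10 to 0.11), the heparan sulphate proteoglycan SDC4 -0.08 and the laminin receptor subunit ITGA6 0.22. Other matrix glycoproteins had 6 of 11 lower (median -0.04), with THBS1 at 0.15, TGFBI at -0.20 and FBN1 at 0.11. None of these genes passed. For all 5 lists the medians, directions and counts at an unadjusted p under 0.05 were read with the deposited scaling only. Over all genes, median centring gave 1.01% lower and 18.4% higher at that p.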

How the data were processed

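The authors deposited intensity values, 1 signal per probe set and array on a linear scale; MAS5 is named in the submitters' processing notes, with no version or detection calls, which are not given in the sources used here. On every array, the trimmed mean without the lowest and highest 2% was 500.1. Symbols came from the platform annotation (41097 probe sets with 1 symbol, 1801 with several, 11777 with none), and all 59 members matched RefSeq with 0 changed symbols.

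Tests used log2(signal + 10.96), where the added value is the 20th percentile of the whole table, so fold changes of dim probe sets are understated. The 62 control probe sets and probe sets below the 40th percentile of mean log2 level were left out. Models were fitted on all 32746 others with limma 3.58.1 in R 4.3.3 (eBayes with trend, two-sided, 10.5 moderated degrees of freedom for the 95% intervals). The steps were tested on simulated data. Alternatives covered scaling, offset, filter, probe sets, variance model, a replicate block and each array left out; a filter on the mean signal was added after seeing the data.

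Members, classes and lists were chosen with earlier results of these data known. Named members were those past a threshold or without group overlap, the 6 with the highest mean signal per class, the 5 with the largest change, the 3 on each side of the filter, and those whose probe sets differed by over 0.5. From each pathway list, the 3 genes with the highest mean signal and those with an unadjusted p under 0.01 were named. A few further genes were named to complete counts. The number of arrays, 6, limits precision.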

Additional observations from a re-analysis of the deposited data

How the results depend on the processing

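All 18 alternatives left 0 members past the adjusted threshold in either direction; at an unadjusted p under 0.05 limma gave 2, and 0 to 4 over the alternatives. All of these were lower except with median centring, where the 2 were LAMB1 (0.326) and LAMC1 (0.238), both higher, in place of FN1 and LAMA5. The 1 lower probe set over the whole table went to 0 with median centring, eBayes without trend and each probe set's own variance, and without 1 array it lay between 0 and 1. Whether the replicate numbers pair the arrays was not settled. Correlations of deviations between arrays of the same number were 0.004, 0.062 and 0.05, and 2 of 3 PBS arrays correlated best with their own number. With the replicate block the counts stayed at 1 lower probe set and 0 members. The smallest adjusted p of a member was then 0.457, against 0.697 without the block (limma).

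Class medians moved with the scaling and the filter, for several classes by more than the spread between arrays. The fibrillar median (-0.165, spread 0.118) moved by less than its spread in several settings. It was -0.091 after quantile normalization, -0.111 with a 60th percentile filter and -0.134 with no filter. For all members, fibrillar collagens, basement membrane collagens, laminins, other collagens and non-collagen members, median centring gave 0.059, -0.005, 0.152, 0.044, 0.112 and 0.023. Quantile normalization gave -0.011 for all members and, without the fibrillar class, 0.055, 0.049, 0.014 and -0.056. A 60th percentile filter gave -0.029 for all members, 0.036 for basement membrane collagens, -0.193 for laminins and 0.011 for other collagens. No filter gave -0.08 for basement membrane and -0.112 for other collagens, an offset of the table median -0.069 for all members, and averaging the probe sets of each gene -0.131 for other collagens. Leaving out probe sets ending in _x_at or _s_at gave -0.139 for all members, 0.027 for laminins and -0.139 for other collagens. With single arrays left out the medians ran from -0.125 to -0.047 for all tested members, from -0.304 to -0.093 for fibrillar collagens, from -0.06 to 0.031 for basement membrane collagens, from -0.247 to 0.095 for laminins, from -0.103 to -0.009 for other collagens.

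Of the tested members, 11 of 39 kept their sign in every alternative. Quantile normalization turned COL11A2 (0.006), COL4A2 (0.009), COL4A3 (0.159), COL4A6 (0.035), COL7A1 (0.12), LAMA1 (0.129), LAMA4 (0.06), LOXL2 (-0.015). Median centring, which adds one amount to every gene so that sign turns near 0 follow from it, turned COL11A2 (0.055), COL1A1 (0.122), COL27A1 (0.048), COL4A2 (0.157), COL4A3 (0.147), COL4A6 (0.012), COL7A1 (0.13), COL8A1 (0.14), COL9A2 (0.021), LAMA1 (0.136), LAMA4 (0.044), LOXL1 (0.08), SPARC (0.059). Averaging probe sets per gene turned COL12A1 (-0.039), COL13A1 (-0.044), COL18A1 (0.082), COL1A1 (0.052), COL4A1 (-0.001), COL6A1 (-0.168), SPARC (0.025). Leaving out _x_at and _s_at probe sets turned COL6A1 (-0.02), SPARC (0.15). The cause of the other turns was not tested. Single arrays left out turned from 3 to 8 named members. Their ranges were COL11A2 -0.29 to 0.003, COL12A1 -0.048 to 0.053, COL13A1 -0.047 to 0.047, COL1A1 -0.184 to 0.059, COL23A1 -0.58 to 0.327, COL27A1 -0.339 to 0.036, COL4A2 -0.058 to 0.082, COL4A3 -0.165 to 0.066, COL4A6 -0.321 to 0.029, COL6A1 -0.008 to 0.263, COL6A3 -1.098 to 0.042, COL7A1 -0.2 to 0.107, COL8A1 -0.047 to 0.014, COL9A2 -0.289 to 0.024, LAMA1 -0.194 to 0.111, LAMA4 -0.371 to 0.095, LOXL1 -0.155 to 0.045, LOXL2 -0.051 to 0.06, LOXL3 -0.692 to 0.004, LOXL4 -0.397 to 0.151.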

Other observations

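Probe sets that did not represent their gene included dim ones with wide differences. The second probe set of COL4A2 had a log2 fold change of -0.87, and a dim one of COL6A1, at 72.9 ± 2.82 with PBS and 38.4 ± 29.4 with TCI04 (SD, n = 3), had groups that did not overlap, while the brightest of COL6A1 gave 0.12.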
